A study of Cricetulus griseus with 16 samples.

Results

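Cytosolic HSP90 and its co-chaperones were followed in Chinese hamster ovary (CHO) cells kept at 37 °C or heated to a fever-like 40 °C or to a moderate hyperthermia of 42.5 °C. The members were taken by name from the table of gene counts, with letter case ignored. Of 10 names sought, 8 were found among the 20824 genes listed, namely Hsp90ab1, Ahsa1, Stip1, Ptges3, Fkbp4, Fkbp5, Chordc1 and Stub1. No gene is listed under the name Hsp90aa1 or Cdc37, so the heat-inducible HSP90 alpha gene and the kinase-specific co-chaperone were not analysed here. All 8 members found passed the filter on low counts in every comparison.

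HSP90 is an ATP-driven chaperone that acts late in folding, on kinases, steroid hormone receptors and other clients that are already partly folded. Co-chaperones guide its cycle: HOP (the product of Stip1) brings clients over from HSP70, AHA1 (Ahsa1) speeds the ATPase, p23 (Ptges3) holds the closed, client-bound state, and FKBP51 and FKBP52 (Fkbp5 and Fkbp4) join steroid receptor complexes. CHIP (Stub1) is a ubiquitin ligase that docks on HSP70 and HSP90 and marks clients for degradation. Several of these genes are known targets of heat shock factor 1, which HSP90 itself helps to hold inactive in unstressed cells.

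The cells were the CHO line CCL-61, an established epithelial-like ovary line, seeded 24 h before treatment. RNA was sequenced from 4 repeats each of unheated cells at 37 °C, of cells held at 40 °C for 1 h or for 6 h, and of cells held at 42.5 °C for 1 h, which makes 16 libraries lettered A to D within each group. The labels call the repeats biological and say no more about whether they came from separate cultures. The p-values therefore measure the spread between these samples. No time is given for the 37 °C cells, so no control is known to match 6 h. In comparisons of the 6 h group with 37 °C or with 1 h at 40 °C, heat and time in culture cannot be told apart.

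Libraries held between 10504192 and 14668365 counts. Levels are given as CPM, the count scaled to the library total, and 3 counts were worth 0.205 to 0.286 CPM, a limit set by counting error alone. The lowest count of any member was 758, for Stub1 at 42.5 °C. Replicate D at 37 °C stood apart from the other control libraries. For 18.8% of 10627 genes it was 1.5-fold or more away from replicates A, B and C on average, and it was above all 3 of them for 8 of 8 members, compared with 42.6% of all genes. The study left this library out, and so do the comparisons below, which rest on 37 °C replicates A, B and C. The counts of members with all 4 control libraries stand beside those with 3, and each member's values with all 4 follow after the members have been described. Member levels are CPM scaled by the trimmed mean of M-values (TMM) as mean ± SD, with n = 3 at 37 °C and n = 4 in each heated group. They were not compared between genes, because no gene lengths were used. A gene was said to rise or fall where the quasi-likelihood test of edgeR gave a Benjamini-Hochberg adjusted p under 0.05 over all genes tested, and it was called a differentially expressed gene (DEG) where the fold change was also at least 1.5.

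Most members were higher in heated cells, together and by small steps. Against 37 °C, 4 of 8 members rose after 1 h at 40 °C, 7 of 8 after 6 h and 6 of 8 after 1 h at 42.5 °C, and none fell. Over all genes tested, 1.07%, 14.7% and 20.8% rose and 0.572%, 14.8% and 22.3% fell at the same threshold and with the same controls. With replicate D among the controls, 0, 4 and 3 members rose, and these shares do not apply to those counts. Fewer of all genes were called then as well, as given further below. DESeq2 called 6, 7 and 6 members, and 7, 7 and 6 had an unadjusted p under 0.05 in edgeR. Shares of all genes called, here and below, are those of edgeR with adjusted p, so none stands beside these counts. Many genes had an unadjusted p this low. Ranked by p in edgeR, 0.0545 came at rank 1636 of 10494 after 1 h at 40 °C. After 6 h 0.0494 came at rank 4286 of 10499, and at 42.5 °C 0.0378 at rank 5040 of 10470. Heated and control libraries did not overlap for 6, 8 and 6 of 8 members, all higher when heated except Stub1 at 6 h, beside 13.4%, 36.2% and 45.9% of all genes. The members' median log2 fold change was 0.23, 0.42 and 0.36, against a median over all genes tested of 0.00 in each comparison. The median over all genes is held near 0 by the TMM scaling and is not itself a result. Few steps reached 1.5-fold: 0 of 8 members were DEGs after 1 h at 40 °C, 1 of 8 (Stip1) after 6 h and 1 of 8 (Chordc1) at 42.5 °C, beside 0.334%, 3.11% and 7.51% of all genes tested. DESeq2, and the unadjusted p with the same fold threshold, gave the same counts of 0, 1 and 1. The 8 members together took 0.547% to 0.602% of all counts in 37 °C replicates A to C, 0.627% to 0.723% after 1 h at 40 °C, 0.741% to 0.884% after 6 h and 0.662% to 0.82% at 42.5 °C. Replicate D was at 0.646%, within the range after 1 h at 40 °C. Most of each sum was Hsp90ab1, which alone took 0.339% to 0.387% in replicates A to C. In bulk RNA, a change in the number of cells expressing a gene and a change in RNA per cell cannot be told apart.

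**Figure D1:**
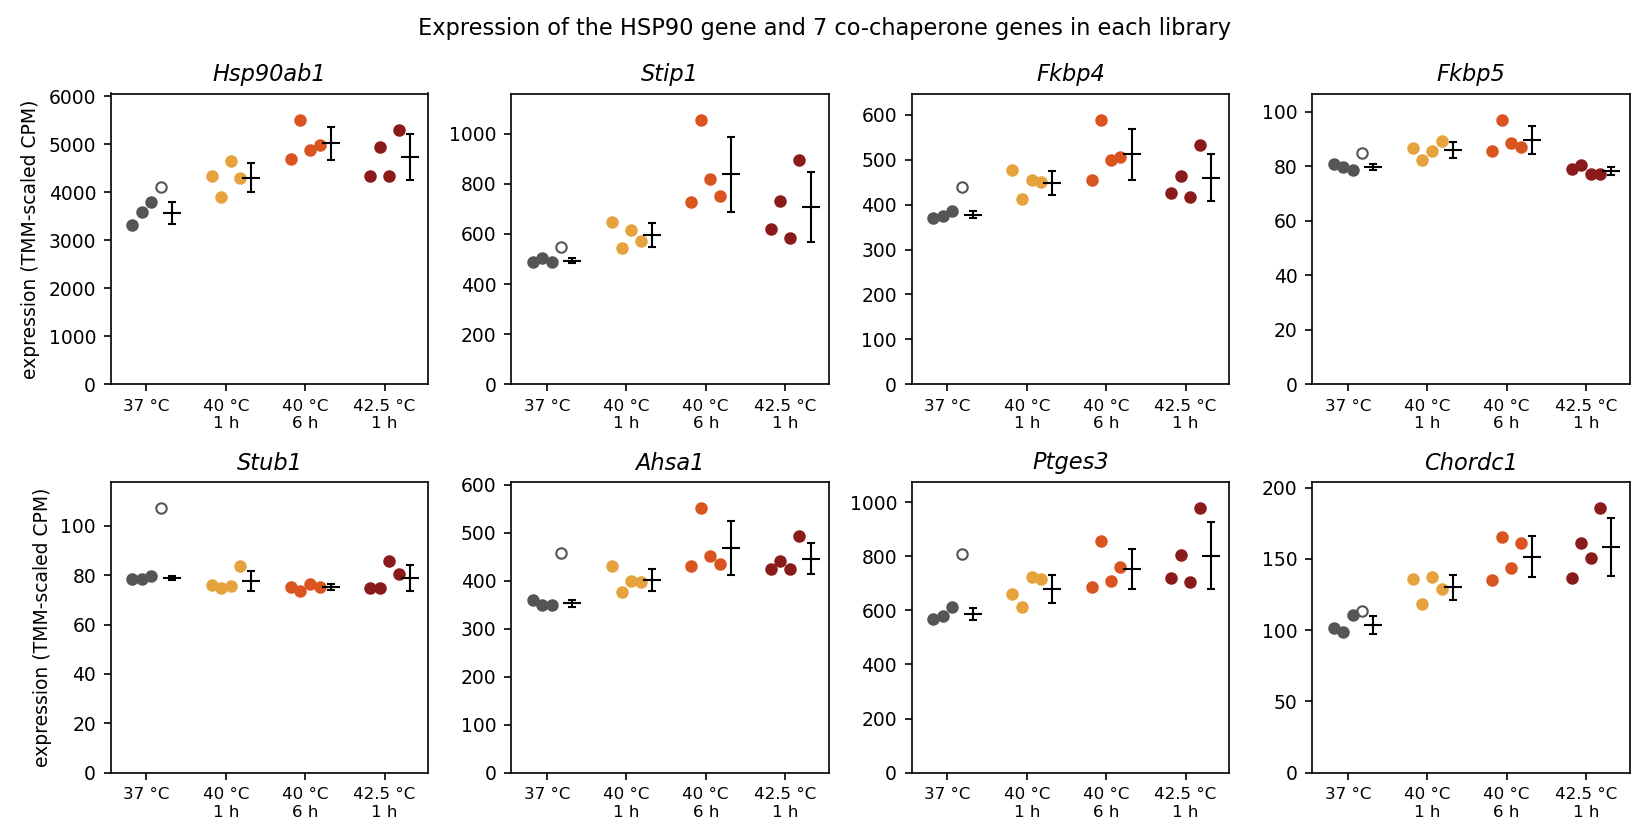
Level of each of the 8 members in every library, in TMM-scaled CPM on a linear axis that starts at 0, by group. Filled circles are the libraries used, open circles are 37 °C replicate D, and bars are the mean ± SD of the libraries used. Hsp90ab1, Stip1, Chordc1, Fkbp4, Ahsa1 and Ptges3 are lowest at 37 °C, Fkbp5 at 42.5 °C overlaps 37 °C, and the heated libraries of Stub1 lie between 73.6 and 85.7 CPM, on both sides of its controls used.

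Hsp90ab1 (ENSCGRG00001021336) encodes HSP90 beta, the constitutively expressed cytosolic form, and was the only cytosolic HSP90 gene found. At 37 °C it was at 3326, 3594 and 3791 CPM in replicates A, B and C. After 1 h at 40 °C the 4 libraries were at 4341, 3908, 4644 and 4302 CPM, and after 6 h at 4699, 5506, 4875 and 4989 CPM. Every library at 40 °C was above every control used, and every library at 6 h was above every library at 1 h. At 42.5 °C the values were 4336, 4939, 4338 and 5300 CPM, above the controls and overlapping both 40 °C groups. The group means were 3570 ± 233, 4300 ± 302, 5020 ± 347 and 4730 ± 475 CPM in that order. Against 37 °C the fold changes were 1.20 after 1 h at 40 °C (adjusted p = 0.0324), 1.40 after 6 h (adjusted p = 2.97e-05) and 1.32 at 42.5 °C (adjusted p = 0.000167). Hsp90ab1 can share reads with Hsp90aa1 and with processed copies of either gene. The counting rule for such reads is not given in the sources used here, so its level is uncertain to that extent.

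Among co-chaperones that bind HSP90 through tetratricopeptide repeats, Stip1 (ENSCGRG00001018895) moved most. This gene encodes HOP, the adaptor that holds HSP70 and HSP90 at once. It was at 489, 504 and 487 CPM in 37 °C replicates A, B and C. The 40 °C libraries were at 649, 545, 616 and 572 CPM after 1 h and at 726, 1055, 818 and 751 CPM after 6 h. The 3 groups did not overlap, and replicate B was the highest at 6 h and the lowest at 1 h. At 42.5 °C Stip1 was at 620, 732, 584 and 894 CPM, which overlapped both 40 °C groups, with replicate D the highest. The log2 fold change against 37 °C was 0.27 ± 0.053 (SE) after 1 h at 40 °C, 0.76 ± 0.092 after 6 h and 0.51 ± 0.10 at 42.5 °C (adjusted p = 0.0154, 1.78e-05 and 0.000743). The rise after 6 h was 1.69-fold, with a 95% confidence interval of 0.57 to 0.95 on the log2 scale, and Stip1 passed adjusted p under 0.05 in 16 of 16 fits of that comparison.

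The FK506-binding proteins Fkbp4 and Fkbp5 are paralogues that occupy the same place in steroid receptor complexes. Fkbp4 (ENSCGRG00001021447) was at 371 to 386 CPM in the controls used, 412 to 476 CPM after 1 h at 40 °C, 455 to 588 CPM after 6 h and 417 to 532 CPM at 42.5 °C. Each heated group was above all controls used, with log2 fold changes of 0.25, 0.44 and 0.28 (adjusted p = 0.012, 0.000136 and 0.00267). Fkbp5 (ENSCGRG00001018256), which is also a classical glucocorticoid-induced gene, was at 81.0, 79.8 and 78.8 CPM at 37 °C. It was at 86.6, 82.3, 85.6 and 89.5 CPM after 1 h at 40 °C and at 85.8, 97.1, 88.8 and 87.2 CPM after 6 h. All 8 libraries at 40 °C were above the 3 controls, and the step passed the test at 6 h (1.12-fold, adjusted p = 0.0301) but not at 1 h (1.08-fold, adjusted p = 0.282). The call at 6 h held in 10 of 16 fits. It was lost with all 4 controls (adjusted p = 0.171), without 37 °C replicate A, B or C (adjusted p = 0.0607, 0.083 and 0.0835) and without 40 °C, 6 h replicate B or C (adjusted p = 0.0878 and 0.0541). At 42.5 °C Fkbp5 was at 78.9, 80.3, 77.2 and 77.4 CPM, which overlapped 37 °C and lay below every 40 °C library. Its difference from 37 °C was -0.03 on the log2 scale, with a 95% confidence interval of -0.13 to 0.06, where that of Fkbp4 was 0.14 to 0.42. The difference between the 2 genes was not tested.

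Stub1 (ENSCGRG00001021121), the gene of the ubiquitin ligase CHIP, showed no change that passed the test in any of the 6 comparisons. Its controls used were at 78.4, 78.3 and 79.8 CPM, and the heated libraries ranged from 73.6 to 85.7 CPM. The 4 libraries at 40 °C for 6 h, at 73.6 to 76.3 CPM, lay below all 3 controls, with a log2 difference of -0.07 ± 0.049 (SE) and a 95% interval of -0.18 to 0.03 (adjusted p = 0.273). At 42.5 °C the interval was -0.12 to 0.11. These intervals hold for the 3 controls used. With replicate D among the controls, the log2 difference at 40 °C for 6 h was -0.195 and lay outside the first of them.

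Chordc1 (ENSCGRG00001004673) encodes CHORD-containing protein 1, or morgana, which binds the ATPase domain of HSP90. It was at 102, 98.6 and 111 CPM in 37 °C replicates A, B and C. After 1 h at 40 °C it was at 136, 118, 138 and 129 CPM, and after 6 h at 135, 165, 144 and 162 CPM. Every library at 40 °C was above the controls, while the 1 h and 6 h groups overlapped. At 42.5 °C the libraries were at 136, 161, 151 and 185 CPM, again all above the controls. Chordc1 had the largest fold change of the 8 members at 40 °C for 1 h (1.26-fold, adjusted p = 0.00826) and at 42.5 °C (1.52-fold, adjusted p = 2.02e-05), and the second largest at 40 °C for 6 h (1.46-fold, adjusted p = 2.11e-05). Its log2 fold change of 0.61 at 42.5 °C lay close to the 1.5-fold threshold. Without 37 °C replicate B it was 0.57 and without 42.5 °C replicate D 0.53, and in both cases the gene passed the p threshold and not the fold threshold.

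Ahsa1 and Ptges3 act on the ATPase cycle from opposite sides, as activator and as stabiliser of the closed state. Ahsa1 (ENSCGRG00001005550) was at 348 to 360 CPM in the controls used and at 376 to 431, 431 to 551 and 424 to 492 CPM after 1 h at 40 °C, after 6 h and at 42.5 °C. No heated library overlapped these controls. Ptges3 (ENSCGRG00001015638) was at 570 to 612 CPM in the controls, and its heated libraries were at 612 to 723, 686 to 856 and 705 to 976 CPM. Its lowest library at 40 °C for 1 h, replicate B, was level with the highest control used. Both genes rose at 40 °C for 6 h, by 1.32-fold and 1.28-fold (adjusted p = 4e-04 and 0.000579), and at 42.5 °C, by 1.26-fold and 1.36-fold (adjusted p = 6.97e-05 and 0.000506). At 40 °C for 1 h neither passed the test, with 1.14-fold and 1.16-fold differences (adjusted p = 0.0585 and 0.073). In that comparison, deviations of libraries with the same letter correlated weakly, at 0.102 to 0.189. With the letter as a block both genes passed the test (adjusted p = 0.000519 and 0.00105). Over 16 fits of that comparison their adjusted p ran from 0.000519 to 0.929 and from 0.00105 to 0.934, with all 4 controls at the upper end. The blocked fit leaves out 40 °C, 1 h replicate D, which has no partner, and brings the members that rose to 6 of 8. More of all genes passed in the blocked fit as well, as given at the end.

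**Figure D2:**
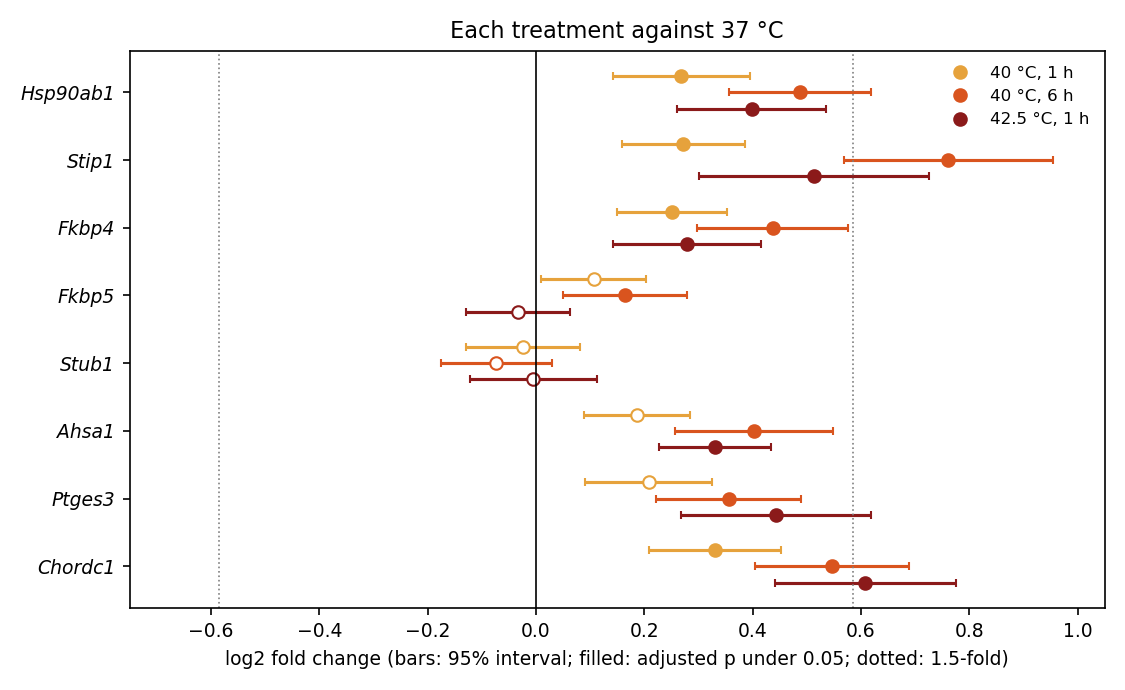
Log2 fold change of the 8 members against 37 °C (x axis, with a 95% confidence interval) after 1 h at 40 °C, 6 h at 40 °C and 1 h at 42.5 °C. The intervals of Hsp90ab1, Stip1, Chordc1, Fkbp4, Ahsa1 and Ptges3 lie above 0 in all 3 comparisons, those of Fkbp5 only at 40 °C, and those of Stub1 in none.

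The comparisons with 37 °C depended on the choice of control libraries. With replicate D among the controls, all genes with an adjusted p under 0.05, higher or lower, went from 172 to 4, from 3091 to 1122 and from 4510 to 1895. The part of these that rose with all 4 controls is not given. None of the 4 members that rose after 1 h at 40 °C passed the test then, with log2 differences of 0.22 for Hsp90ab1, 0.23 for Stip1, 0.19 for Fkbp4 and 0.29 for Chordc1 (adjusted p = 0.656, 0.436, 0.582 and 0.269). An unadjusted p under 0.05 was reached by 4, 6 and 6 members in the 3 comparisons. The share of all genes that reached it is not given. Hsp90ab1, Stip1 and Chordc1 still rose at 40 °C for 6 h and at 42.5 °C. Their log2 fold changes were then 0.44, 0.72 and 0.51 at 6 h (adjusted p = 0.0179, 0.00656 and 0.00656) and 0.36, 0.49 and 0.58 at 42.5 °C (adjusted p = 0.0259, 0.0213 and 0.00255). Fkbp4 rose at 6 h (0.38, adjusted p = 0.0266) and did not pass at 42.5 °C (0.23, adjusted p = 0.0894). Fkbp5 did not pass at 6 h (0.14, adjusted p = 0.171), at 1 h (0.08, adjusted p = 0.884) or at 42.5 °C (-0.04, adjusted p = 0.59). Ahsa1 and Ptges3 did not pass, at 0.30 and 0.23 after 6 h (adjusted p = 0.106 and 0.246) and 0.24 and 0.33 at 42.5 °C (adjusted p = 0.0942 and 0.112), nor at 0.08 each after 1 h (adjusted p = 0.929 and 0.934). Stub1 was at -0.15, -0.195 and -0.11 after 1 h and 6 h at 40 °C and at 42.5 °C (adjusted p = 0.915, 0.233 and 0.475). Replicate D stood over the mean of the other controls by 1.30-fold for Ahsa1, 1.38-fold for Ptges3 and 1.36-fold for Stub1, and by 1.06-fold to 1.16-fold for the other 5 members. After 1 h at 40 °C single libraries also decided the count, which was 1 without 37 °C replicate A, 0 without 37 °C replicate B and 2 without 40 °C, 1 h replicate C. In 1 fit over all 4 groups it was 0, and fewer of all genes passed as well, as given at the end. An unadjusted p under 0.05 was reached by 7 members in that fit, and the share of all genes that reached it is not given. Chordc1 passed the test in 13 of 16 fits of that comparison, Fkbp4 in 12, and Hsp90ab1 and Stip1 in 10.

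After 6 h at 40 °C the chaperone and 3 co-chaperones were higher than after 1 h. Heat and time in culture cannot be told apart here. Stip1 was higher by 1.41-fold (adjusted p = 0.00159), Hsp90ab1 by 1.17-fold (adjusted p = 0.0193), Chordc1 by 1.16-fold (adjusted p = 0.0244) and Ahsa1 by 1.17-fold (adjusted p = 0.0313). The median log2 step over the 8 members was 0.205, against 0.00 over all genes, which the TMM scaling holds near 0. These are 4 of 8 members, where 9.45% of all genes tested rose, and none fell, where 9.04% did. DESeq2 called 5 members, and none was a DEG by either tool (all genes, 1.28%). The 6 h and 1 h libraries did not overlap for 2 of 8 members, Hsp90ab1 and Stip1, beside 21.3% of all genes. Fkbp4 and Ptges3 were 1.14-fold and 1.11-fold higher at 6 h and did not pass (adjusted p = 0.0524 and 0.125), and the intervals of Fkbp5 (-0.05 to 0.17) and Stub1 (-0.15 to 0.06) took in 0. Stip1 passed in 16 of 16 fits. Without replicate B of either group it was the only member that did. Replicate B was the lowest 1 h library for 8 of 8 members and the highest 6 h library for 7 of 8.

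At the same duration of 1 h, 42.5 °C and 40 °C differed for 4 of 8 members, in both directions. Chordc1 was 1.21-fold higher at 42.5 °C (adjusted p = 0.00827), Ptges3 1.18-fold (adjusted p = 0.0342) and Ahsa1 1.11-fold (adjusted p = 0.0373), whereas Fkbp5 was lower by 0.14 on the log2 scale, at 0.908 of its 40 °C level (adjusted p = 0.0188). So 3 of 8 members rose, where 16.4% of all genes did, and 1 fell, where 19.6% did. DESeq2 called 3 members, and none was a DEG by either tool (all genes, 5.27%). The members' median log2 difference was 0.14. Hsp90ab1 did not differ past the threshold, with an interval of 0.00 to 0.27 on the log2 scale (adjusted p = 0.118), and nor did Stip1, with 0.04 to 0.45 (adjusted p = 0.0634). Fkbp5 was the only member whose libraries did not overlap, beside 34.1% of all genes. Without 42.5 °C replicate D only Chordc1 passed, and without 42.5 °C replicate B or 40 °C, 1 h replicate B only Chordc1 and Fkbp5 did. When libraries were scaled by their totals alone, without TMM, the same 2 genes passed. The TMM factors were 0.96 to 0.976 at 42.5 °C and 0.995 to 1.03 in the other libraries used.

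The treatments of 42.5 °C for 1 h and 40 °C for 6 h differ in both temperature and duration. In any difference between these groups, temperature and duration cannot be told apart. Between this shorter, stronger and this longer, milder treatment, only Fkbp5 passed the test. It was lower at 42.5 °C by 0.20 on the log2 scale, at 0.87 of its level (adjusted p = 0.00361), and it passed in 16 of 16 fits. This is 1 of 8 members, where 24.5% of all genes tested fell and 22.5% rose. None was a DEG by edgeR or DESeq2 (all genes, 8.25%), and Fkbp5 was the only member whose libraries did not overlap (all genes, 41.8%). The members' median log2 difference was -0.08. Stip1 and Fkbp4 were lower at 42.5 °C by 0.25 and 0.16 on the log2 scale and did not pass (adjusted p = 0.0821 and 0.0879), with intervals of -0.49 to -0.01 and -0.32 to 0.00. The intervals for Hsp90ab1 (-0.23 to 0.04), Ahsa1 (-0.22 to 0.07), Ptges3 (-0.09 to 0.26) and Chordc1 (-0.11 to 0.22) took in 0. These bound the difference and do not show equal levels. Without 42.5 °C replicate D, 4 members passed, namely Hsp90ab1, Stip1, Fkbp4 and Fkbp5, and without 40 °C, 6 h replicate A, 3 did, namely Stip1, Fkbp4 and Fkbp5.

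**Figure D3:**
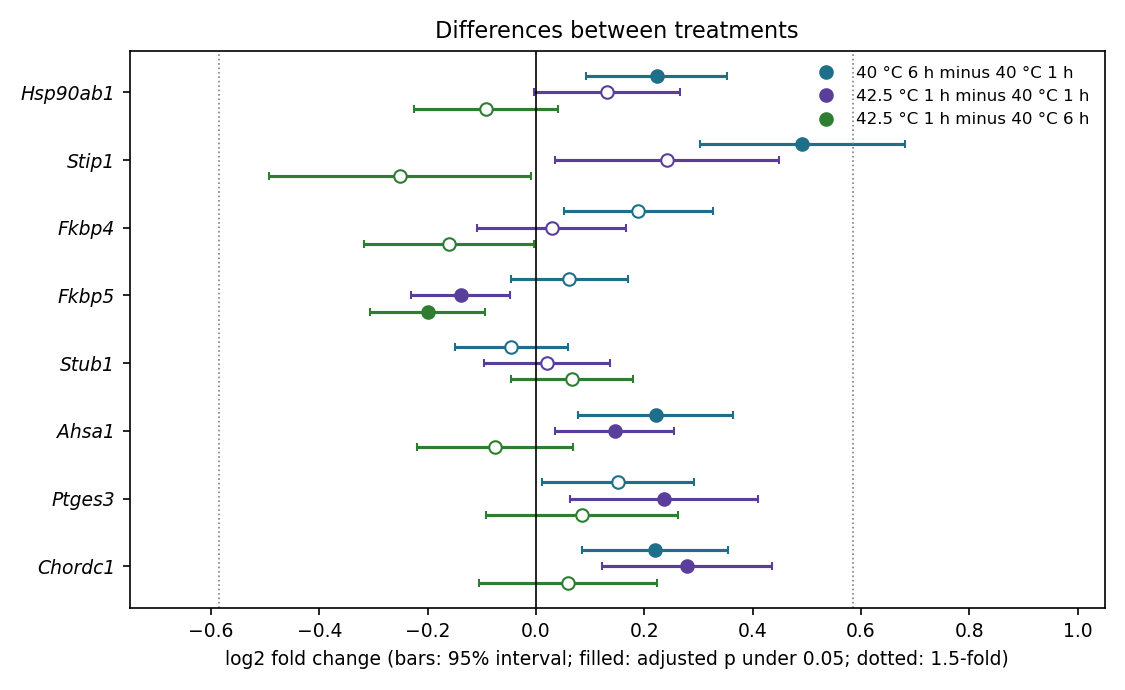
Log2 fold change of the 8 members between heated groups (x axis, with a 95% confidence interval). Filled points passed the test, and dotted lines mark 1.5-fold. Stip1 has the largest step from 1 h to 6 h at 40 °C, and the only filled points to the left of 0 are those of Fkbp5 at 42.5 °C.

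The order of the group levels differed by member. Hsp90ab1, Stip1, Fkbp4, Ahsa1 and Fkbp5 had their highest mean at 40 °C for 6 h, with the mean at 42.5 °C below it. Ptges3 and Chordc1 had their highest mean at 42.5 °C, at 802 ± 125 and 158 ± 20.6 CPM against 753 ± 75.5 and 151 ± 14.3 CPM at 40 °C for 6 h. For the 6 members other than Fkbp5 and Stub1, these were the 2 highest groups, and the step between them passed the test for none. Below the lower of these 2 groups, the mean after 1 h at 40 °C differed from it past the test for Ahsa1 and Chordc1. It did not for Hsp90ab1, Stip1, Fkbp4 and Ptges3. Against the highest group, the mean after 1 h at 40 °C was lower past the test for all of these but Fkbp4 (adjusted p = 0.0524). Fkbp5 had its 2 highest means at 40 °C, at 89.7 ± 5.04 CPM after 6 h and 86.0 ± 2.95 CPM after 1 h, which did not differ past the threshold (adjusted p = 0.435).

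Within a group the members moved up and down together from library to library. At 42.5 °C replicate D was the highest library for 6 of 8 members, and at 40 °C for 6 h replicate A was the lowest for 7 of 8. Across 15 libraries with group means removed, the 28 pairs of members had Pearson correlations from -0.21 to 0.95, with a median of 0.70, and 23 were positive. With group means kept, the range was -0.41 to 0.96 and the median 0.85. These are descriptions over libraries that share scaling, and no test was made of them. The cause of this spread was not tested.

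**Figure D4:**
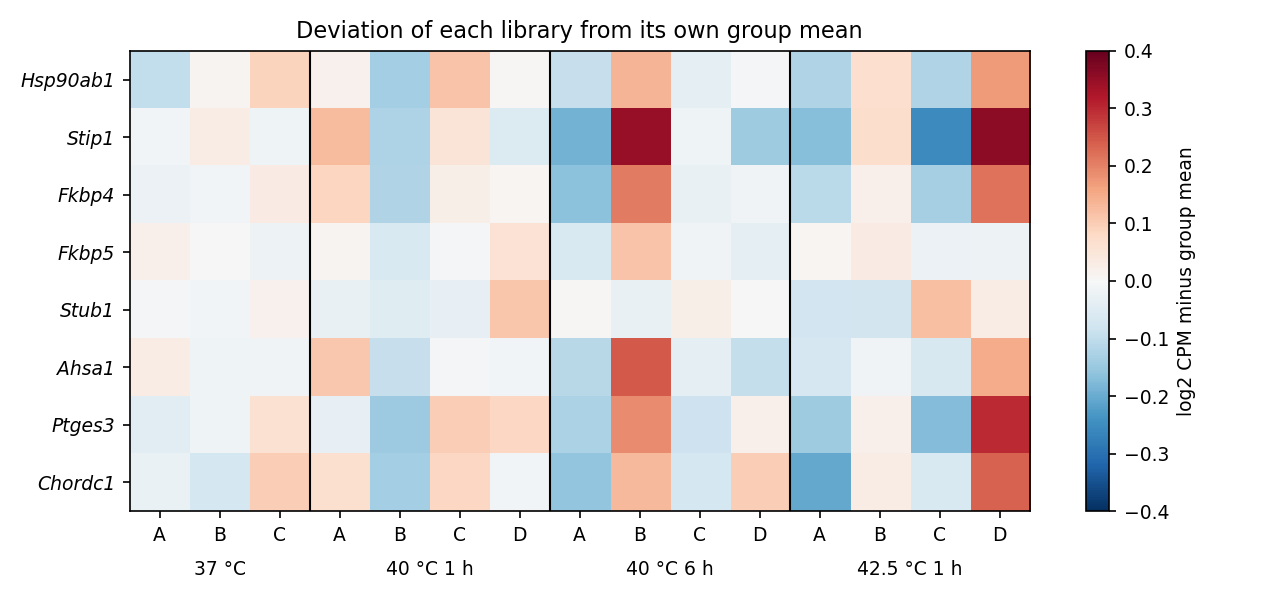
Heat map of each library's deviation from its own group mean, in log2 CPM by colour (red above, blue below), with the 8 members in rows and the 15 libraries used in columns. The columns of 40 °C, 6 h replicate B and 42.5 °C replicate D are red for most members, that of 40 °C, 1 h replicate B is blue for all 8, and the rows of Fkbp5 and Stub1 are the palest.

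Of 9449 named genes, those whose log2 CPM followed Hsp90ab1 most closely over 15 libraries were Gprasp1 (Pearson's r = 0.952), Zfp664 (0.951), Esco2 (0.948), Zscan26 (0.946) and Mkks (0.945). Among the members, Chordc1 came at rank 7 (0.940), Fkbp4 at 9 (0.940), Stip1 at 10 (0.933), Ahsa1 at 21 (0.912) and Ptges3 at 23 (0.910). So 5 of the 7 other members were among the 23 genes most like Hsp90ab1. Fkbp5, at rank 1835 (0.445), and Stub1, at rank 6516 (-0.279), were not.

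Other co-chaperones of HSP90 moved in both directions. Of 22 tested, 2 rose after 1 h at 40 °C, 6 rose and 2 fell after 6 h, and 5 rose and 5 fell at 42.5 °C, with median log2 fold changes of 0.02, 0.09 and -0.015. Over all genes tested 1.07% rose after 1 h, 14.7% rose and 14.8% fell after 6 h, and 20.8% rose and 22.3% fell at 42.5 °C, so the counts at 42.5 °C were near the background. The calls against 37 °C for this and the following lists of related genes rest on control replicates A, B and C. Apart from Fkbp5, values with replicate D among the controls are not given for these lists. With replicate D, no member passed the test after 1 h at 40 °C, and far fewer of all genes did. Whether the calls below hold then was not tested. With replicates A, B and C, Ahsa2, a paralogue of Ahsa1, rose in all 3 (0.39, 0.80 and 0.48, adjusted p = 0.0284, 1.26e-05 and 0.000117) and was a DEG at 6 h. Cacybp, the calcyclin-binding protein, which shares a domain with the HSP90 partner Sgt1, also rose in all 3 (0.30, 0.57 and 0.71, adjusted p = 0.0101, 4.53e-05 and 5.77e-06) and was a DEG at 42.5 °C. The small glutamine-rich co-chaperone Sgta fell at 42.5 °C by 0.33 (adjusted p = 6.03e-05), and so did Tsc1, a co-chaperone that slows the HSP90 ATPase, by 0.37 (adjusted p = 0.000916), having been higher at 40 °C for 6 h than at 37 °C (0.22, adjusted p = 0.0407). Unc45a, the myosin chaperone, rose at 40 °C for 6 h (0.23, adjusted p = 0.00282) and fell at 42.5 °C by 0.15 (adjusted p = 0.0357). Nudcd3, which acts with HSP90 on dynein, fell at 40 °C for 6 h by 0.26 (adjusted p = 0.00096).

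HSP90 has paralogues in other compartments. Hsp90b1, the HSP90 of the endoplasmic reticulum, rose after 6 h at 40 °C (0.76, adjusted p = 2.51e-06) and at 42.5 °C (0.25, adjusted p = 0.000487). It was lower at 42.5 °C than at 40 °C for 6 h by 0.51 on the log2 scale (adjusted p = 1.2e-05), where the difference for Hsp90ab1 was -0.09 (adjusted p = 0.243). Trap1, the mitochondrial HSP90, passed the test in no comparison with 37 °C, and its adjusted p was 0.0501 at 42.5 °C. Whether the difference between paralogues exceeds their error was not tested.

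Some partners of HSP70, which hands clients to HSP90 through HOP, held larger steps. Of 8 tested, 3 were DEGs after 1 h at 40 °C, 3 after 6 h and 4 at 42.5 °C, beside 0.334%, 3.11% and 7.51% of all genes. These counts also rest on control replicates A, B and C alone. The list medians were 0.31, 0.20 and 0.69 on the log2 scale, and that at 6 h was below the members' 0.42. At 42.5 °C 5 of 8 rose (all genes, 20.8%) and 3 did not pass the test. At 42.5 °C the log2 fold change was 3.79 for Dnajb1, which delivers substrates to HSP70, 2.96 for Hsph1, a nucleotide exchange factor, 2.75 for Bag3 and 0.94 for Dnaja1. Dnajb1, Bag3 and Hsph1 were also DEGs at 42.5 °C against 40 °C for 6 h, at 3.13, 2.61 and 1.74 (adjusted p = 8.63e-10, 3.59e-10 and 3.13e-06). In that comparison 0 of the 8 HSP90 members were DEGs, a count near the share over all genes (8.25%). After 6 h at 40 °C, Dnajb1 and Bag3 were lower than after 1 h by 0.97 and 0.72 (adjusted p = 0.00453 and 0.00299). Dnaja1 was higher by 0.25 (adjusted p = 0.0435).

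**Figure D5:**
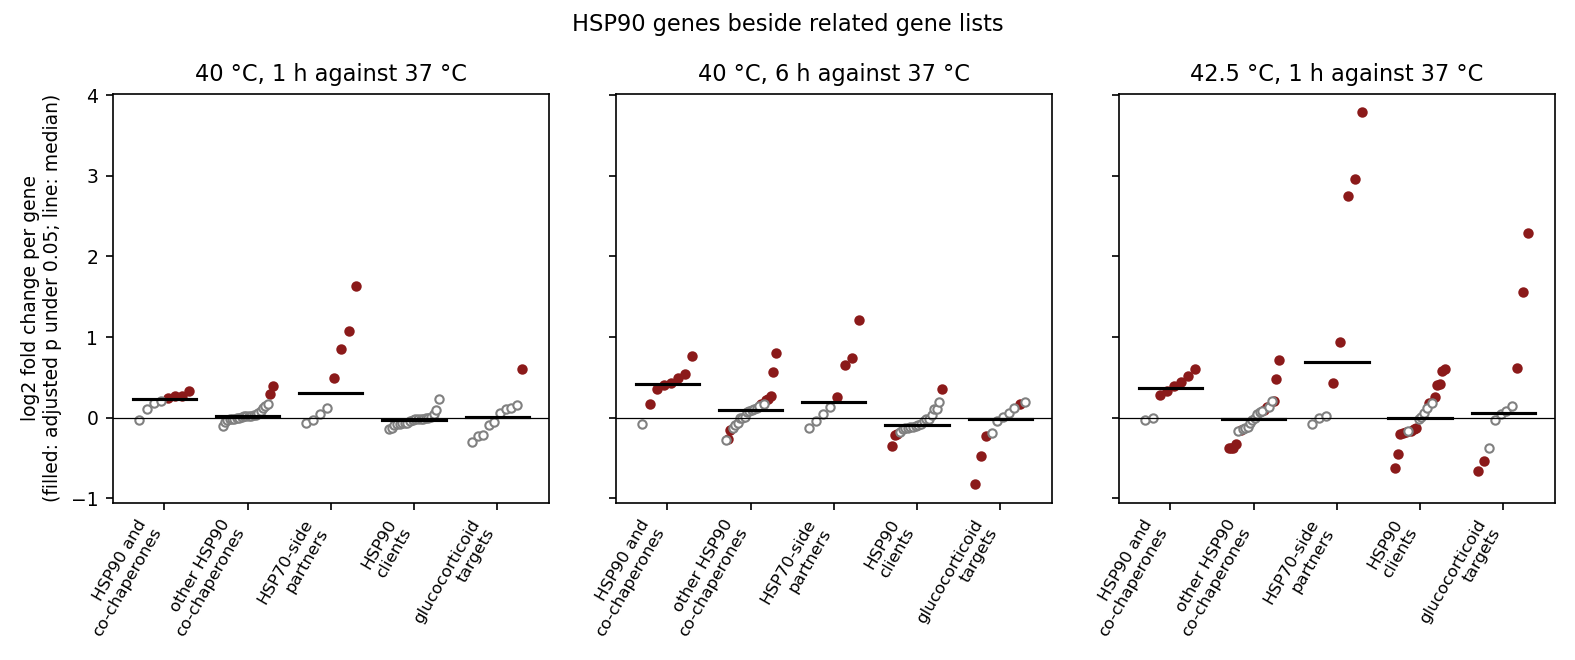
Log2 fold change against 37 °C (y axis) of each gene tested in the 8 members and in the lists of related genes, by treatment, with the list median as a line. The members keep within a narrow band above 0 apart from Fkbp5 and Stub1, the HSP70 partners reach 3.79 at 42.5 °C, and the other co-chaperones and clients spread to both sides of 0.

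Genes of classical HSP90 clients, the kinases and receptors that depend on it, moved to both sides. Of 20 tested, 0 passed the test at 40 °C for 1 h (all genes, 1.07% higher and 0.572% lower). There 1 had an unadjusted p under 0.05 and DESeq2 called 0. After 6 h at 40 °C 1 rose and 3 fell, where 14.7% and 14.8% of all genes tested did. At 42.5 °C 6 rose and 8 fell, where 20.8% and 22.3% of all genes tested did. The list medians were -0.02, -0.09 and 0.00 on the log2 scale. The kinase gene Stk11 fell at 42.5 °C by 0.63 on the log2 scale (adjusted p = 1.25e-07) and the mineralocorticoid receptor gene Nr3c2 rose by 0.60 (adjusted p = 0.000122). Nr3c1, the glucocorticoid receptor gene, rose by 0.42 (adjusted p = 1.96e-05). Of 10 known glucocorticoid receptor targets tested, a list that includes Fkbp5, 1 rose after 1 h at 40 °C (all genes, 1.07%). After 6 h 1 rose (Fkbp5 itself) and 3 fell, where 14.7% and 14.8% of all genes did. At 42.5 °C 3 rose and 2 fell. The list medians were 0.01, -0.02 and 0.06 in that order. At adjusted p alone, these counts at 42.5 °C were again near the shares over all genes. With the fold threshold added, 3 were DEGs on the higher side and 1 on the lower, where 7.51% of all genes were DEGs. Besides Dusp1, these were Sgk1 at 1.56, Errfi1 at 0.62 and Per1 at -0.66 on the log2 scale (adjusted p = 4.62e-07, 0.000157 and 0.000388). The phosphatase gene Dusp1 rose at 42.5 °C by 2.29 and at 40 °C for 1 h by 0.60, and fell at 40 °C for 6 h by 0.22 (adjusted p = 1.49e-08, 0.02 and 0.0331). DESeq2 called 0 of these 10 targets after 1 h at 40 °C. The calls for clients and for these targets also rest on control replicates A, B and C alone. Several of these targets, Dusp1 among them, are also immediate early genes with other known inducers.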

How the data were processed

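RNA of 16 CHO libraries was prepared with a TruSeq RNA kit and sequenced as 150-base read pairs. The study's methods state that reads were trimmed, mapped to CHOK1GS_HDv1 and counted in CLC Genomics Workbench, and the submitters' processing notes name bcl2fastq. The annotation release, the strand setting and the treatment of reads with several mapping places are not given in the sources used here. The authors deposited whole-number read counts per gene and library, without normalization. Of 20824 genes, 4423 appear by identifier only and were not named. Library totals were 10504192 to 14668365 counts. The library left out, 37 °C replicate D, was found by comparing counts with the study's supplementary table.

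Groups were compared 2 at a time (6 comparisons) by the quasi-likelihood test of edgeR 4.0.16 in R 4.3.3, with filterByExpr, TMM and Benjamini-Hochberg adjustment over all genes tested, which numbered 10427 to 10499. The biological coefficient of variation was 0.049 to 0.056. The test was checked on simulated data. Correlations and deviations used log2 CPM with a prior count of 2. The alternatives were DESeq2 1.42.0 and its size factors, no filter, at least 10 counts in every library, all 4 controls, 1 fit over 4 groups, a replicate block, glmTreat, each library left out and, added after seeing the data, library totals without TMM. A count of fits covers the main settings, these alternatives and each library left out, as far as they apply. Letters in the labels may pair libraries. Deviations from group means of same-letter libraries correlated at 0.102 to 0.189 for 40 °C, 1 h and 37 °C, over 0.1 in all 3 pairs. By that cut the letters were taken to pair these libraries, and not those of the other comparisons. Libraries with different letters were not compared in this way, so pairing is not established. The fits reported have no block, and the blocked values stand beside the 40 °C, 1 h results that they change.

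The members and the lists of related genes were chosen with earlier results of these data known. Named genes are all members found, up to 4 genes per list and comparison with the lowest adjusted p, and the 5 genes most correlated with Hsp90ab1. Of the names sought, 23 of 28 other co-chaperones, 2 of 2 organelle paralogues, 8 of 12 HSP70 partners, 22 of 24 clients and 15 of 17 glucocorticoid receptor targets were found. No sequence or coordinate is printed, because no genome of the build used was at hand.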

Additional observations from a re-analysis of the deposited data

Results flagged for a closer look

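Of 32 groups of 4 libraries tested (8 members in 4 groups), 3 held a library far from the other 3, where chance alone flags about 1 group in 20. The gap to the nearest library, as a share of the group's range, was over the critical value of 0.829 in each. Ahsa1 in 37 °C replicate D was at 458 CPM, with the nearest library at 360 CPM (share 0.892). Stub1 in 37 °C replicate D was at 107 CPM, with the nearest at 79.8 CPM (share 0.948). Stub1 in 40 °C, 1 h replicate D was at 83.6 CPM, with the nearest at 75.8 CPM (share 0.891).

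Replicate D at 37 °C, which no comparison with 37 °C uses in its main form, was above replicates A to C for every member. It was at 4100 CPM for Hsp90ab1 (highest of the others 3791), 548 for Stip1 (504), 808 for Ptges3 (612), 439 for Fkbp4 (386), 85.0 for Fkbp5 (81.0) and 113 for Chordc1 (111). Ahsa1 and Stub1 were the widest from the others by the share given above. The cause was not tested.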

How the results depend on the processing

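Members that passed adjusted p under 0.05 at 40 °C for 1 h numbered 4. They numbered 0 with all 4 controls or 1 fit over 4 groups, and 0 to 6 with a library left out. At 40 °C for 6 h they numbered 7, and 4 with all 4 controls. At 42.5 °C they numbered 6, and 3 with all 4 controls. The DEG count of 1 at 40 °C for 6 h became 0 by glmTreat and 1 to 2 with a library left out, being 2 (Stip1 and Chordc1) without 37 °C replicate C or 40 °C, 6 h replicate A. The DEG count of 1 at 42.5 °C became 0 with all 4 controls, with the replicate block, by glmTreat and with library totals only, and 0 to 2 with a library left out, being 0 without 37 °C replicate B or 42.5 °C replicate D and 2 without 42.5 °C replicate C. For 6 h against 1 h at 40 °C, 4 members became 1 to 6 with a library left out. For 42.5 °C against 40 °C for 1 h, 4 became 2 with library totals only and 1 to 6 with a library left out. For 42.5 °C against 40 °C for 6 h, 1 became 3 with no filter, with the replicate block and with library totals only, and 1 to 4 with a library left out. The replicate block changed no other member count by over 1.5 times. Of 720 log2 fold changes of single members under an alternative, 624 kept direction and side of the threshold, 55 lost the call, 29 gained it and 12 changed sign. None of the 12 was called. Stub1 at 42.5 °C against 37 °C was 0.003 in 1 fit over 4 groups and -0.042 to 0.026 with a library left out. Against 40 °C for 1 h, Fkbp4 at 42.5 °C was -0.028 and Stub1 -0.036 with library totals only, and -0.043 to 0.079 and -0.014 to 0.057 with a library left out. Against 40 °C for 6 h, the ranges with a library left out were -0.125 to 0.015 for Ahsa1, -0.023 to 0.153 for Ptges3 and -0.026 to 0.125 for Chordc1. Over all genes, the 172 with adjusted p under 0.05 after 1 h at 40 °C became 4 with all 4 controls, 107 in 1 fit over 4 groups, 323 with no filter and 624 with the replicate block. The 3091 after 6 h became 1122 and the 4510 at 42.5 °C 1895 with all 4 controls. The causes were not tested. The lowest count of a member in any library was 758, far over the 3 counts taken as the limit of detection.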
